A study of Equus caballus with 4 samples.

Results

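TLR2, TLR3, TLR4 and TLR9 are 4 of the Toll-like receptors, membrane proteins with which cells detect microbial molecules. They were picked by name: every non-control probe that the array design assigns to a RefSeq transcript of one of these horse genes was read. This gave 5 of the 43603 probes, namely 2 for TLR4 and 1 each for TLR2, TLR3 and TLR9, and 4 of the 19607 targets (genes or transcripts) that could be tested. Sarcoids, skin tumours of the horse made up largely of fibroblasts, were compared with skin taken from the same animal at a distance from the tumour. Each of 4 horses gave 1 two-colour Agilent array, with RNA of the sarcoid in the Cy3 channel and RNA of the skin in the Cy5 channel. No treatment, age or breed is given in the labels used, and both tissues of a horse share the animal. No array had the dyes swapped, so any dye effect on a gene is part of its ratio.

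Toll-like receptors carry leucine-rich repeats that bind the ligand and an intracellular TIR domain that recruits adaptor proteins. TLR2 and TLR4 act at the cell surface, TLR2 on bacterial lipopeptides as a dimer with TLR1 or TLR6, and TLR4 on lipopolysaccharide together with LY96 (also called MD2) and CD14. TLR3 and TLR9 act in endosomes, TLR3 on viral RNA duplexes and TLR9 on unmethylated CpG DNA. In skin, keratinocytes, fibroblasts, endothelial cells and leukocytes are known to carry members of the family. Equine sarcoids are associated with infection by bovine papillomaviruses, which are DNA viruses.

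None of the 4 receptors passed the test of a difference between sarcoid and skin. Their mean log2 ratios of sarcoid over skin lay between -0.30 and -0.21, and limma called 0 of the 4 at a Benjamini-Hochberg adjusted p under 0.05, with 0 of the 4 at an unadjusted p under 0.05. Over all 19607 targets, limma called 15.7% (3087), of which 1146 were higher (5.84% of the targets) and 1941 lower (9.9%). With the background model fitted to all spots before outlier spots are left out, the order first planned, limma called 240 targets, 93 higher and 147 lower, and again 0 of the 4 receptors. The intervals are wide: they allow anything between 0.588 and 1.28 times the skin level for TLR2, between 0.542 and 1.22 times for TLR3, between 0.676 and 1.02 times for TLR9, and between 0.345 and 2.13 times for TLR4 (95%, limma). Differences inside these intervals were not detectable with 4 arrays, and equality of the tissues is not shown. The ratio of each of the 4 receptors was lowest in horse 3, and that of TLR2, TLR3 and TLR4 was highest in horse 4. With the background model fitted to all spots, at least TLR3 and TLR9 were not lowest in horse 3. TLR9 was then at -0.02 in horse 3 and -0.29 in horse 4.

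The arrays measured all 4 receptors in both tissues. Each of the 5 probes was well above background, by the scanner software's flag, in 4 of 4 sarcoid channels and 4 of 4 skin channels, with 0 saturated and 0 outlier spots. The probes for TLR3 and TLR9 were nevertheless dim. The TLR3 spot read 90.5 to 167 in the sarcoid channel, where its local background was 21 to 22, and 117 to 265.5 in the skin channel, where it was 46 to 52 (median pixel intensity). Because normexp correction adds 50 to every signal, ratios of such dim spots are drawn towards 0. Across arrays, 67.2% to 80.7% of the spots of a channel were well above background. Markers followed the tissue labels: 5 of 5 measured fibroblast markers rose in sarcoids, with LUM (lumican) at a log2 ratio of 4.24 ± 1.16, and both measured keratinocyte markers fell, with KRT15 (a basal keratin) at -5.12 ± 0.11 (SD, n = 4). All 4 skin gland markers fell too, such as LATH (latherin, a sweat protein) at -6.33 ± 0.26. Over all targets 5.84% were called higher and 9.9% lower. The marker lists were chosen with earlier results of these data known, so they are not an independent check of the labels. With the background model fitted to all spots the calls of LUM, KRT15 and LATH held, while those of the gland markers HSD3B2, CA6 and LTF were lost (limma adjusted p = 0.0637, 0.179 and 0.305), as were those of the keratinocyte marker S100A7 (0.0519) and the fibroblast marker SPARC (0.0767). In such bulk samples fewer cells of a type and less RNA per cell cannot be told apart. The descriptions of 3 samples mention embryonic stem cells, against their tissue and horse fields, which were used here.

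TLR2, which recognizes bacterial lipopeptides, is covered by the probe A_69_P000236 (RefSeq transcript NM_001081796). Its normalized log2 level in the sarcoids of horses 1 to 4 was 10.24, 10.60, 9.82 and 10.995, against 10.68, 10.62, 10.62 and 10.57 in their skin. The skins were nearly alike, within 0.11 of each other, whereas the sarcoids spread over 1.17 and lay on both sides of the skin values. The within-horse log2 ratios were -0.44, -0.02, -0.80 and 0.42, so 3 sarcoids were below the skin of their horse and 1 above it. The mean was -0.21 ± 0.53 (SD, n = 4; 95% interval -0.77 to 0.35; limma adjusted p = 0.582). The SD of the TLR2 level among the 4 skins was larger than that of only 2.21% of targets, while its SD among sarcoids was larger than that of 69.3%.

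TLR4, the receptor for lipopolysaccharide, has 2 probes on its transcript NM_001099769. The brighter, A_69_P001451, gave log2 levels of 10.63, 12.25, 9.58 and 11.73 in the sarcoids of horses 1 to 4, against 11.27, 11.66, 11.53 and 10.61 in their skin. Sarcoids were both the highest and the lowest of the 8 samples, and skin lay between them. The ratios were -0.64 and -1.96 in horses 1 and 3, and 0.59 and 1.11 in horses 2 and 4, with a mean of -0.22 ± 1.37 (SD, n = 4; 95% interval -1.53 to 1.09; limma adjusted p = 0.815). The other probe, A_69_P001452, gave ratios of -0.46, 0.59, -1.52 and 0.76 in horses 1 to 4, with the same sign as the first probe in each horse and within 0.44 of it. Its mean was -0.16 ± 1.06 (SD, n = 4), with a limma adjusted p of 0.825 in a fit over all 33864 probes, of which 18.2% were called.

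The SD of TLR4 between horses, 1.37, exceeded that of 97.7% of targets, for which the median SD was 0.34. With the background model fitted to all spots the ratio in horse 3 was -0.93 for TLR4, -0.28 for TLR2, -0.03 for TLR3 and -0.02 for TLR9. The reported ratios in that horse were -1.96, -0.80, -0.87 and -0.46, so their size rests on the order of these steps. Without horse 3 the mean log2 ratio of TLR4 was 0.36 (limma adjusted p = 0.595), so the sign of the mean rests on that horse.

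TLR3, the endosomal sensor of RNA duplexes, is read by A_69_P000826 (NM_001081798). Its log2 levels were 6.56, 7.04, 6.36 and 8.05 in the sarcoids of horses 1 to 4, against 6.99, 7.41, 7.23 and 7.58 in their skin. The groups overlapped, and the sarcoids of horses 4 and 3 were the highest and the lowest of the 8 samples. The ratios were -0.42, -0.37, -0.87 and 0.47, with a mean of -0.30 ± 0.56 (SD, n = 4; 95% interval -0.88 to 0.28; limma adjusted p = 0.441). From Agilent's own processed signals, which add no constant, the TLR3 mean was -0.67 (limma adjusted p = 0.374), and with the background model fitted to all spots it was -0.01 (limma adjusted p = 0.973).

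TLR9, the endosomal sensor of CpG DNA, is read by A_69_P001696 (NM_001081790). It was the least variable of the 4 receptors, with log2 levels of 7.17, 7.25, 7.11 and 7.34 in the sarcoids of horses 1 to 4, against 7.40, 7.36, 7.57 and 7.63 in their skin. Every sarcoid was below every skin sample, by small amounts. The ratios were -0.23, -0.11, -0.46 and -0.29, below 0 in 4 of 4 horses, with a mean of -0.27 ± 0.15 (SD, n = 4; 95% interval -0.56 to 0.02). This did not pass the test over all targets (limma adjusted p = 0.188), and an exact sign-flip test gave p = 0.125, the smallest that 4 horses allow. The TLR9 spot read 110 to 162.5 in the sarcoid channel and 152.5 to 255 in the skin channel (median pixel intensity). With an added constant of 16 the TLR9 mean was -0.35 (limma adjusted p = 0.183), and with Agilent's processed signals it was -0.24 (0.472).

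**Figure D1:**
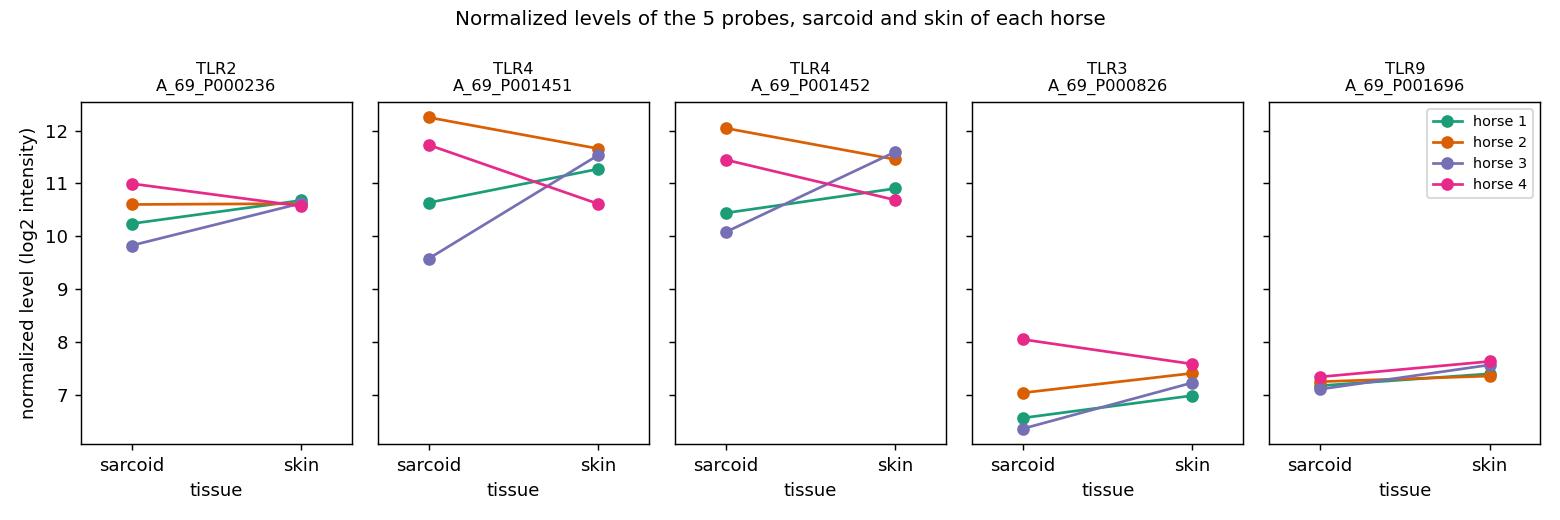
Normalized log2 intensity of the 5 probes of TLR2, TLR4, TLR3 and TLR9 in the sarcoid (left) and skin (right) of each horse, with 1 line per horse. TLR2 levels span 1.17 among sarcoids and 0.11 among skins, and the TLR4 lines run in opposite directions in different horses. Levels of different probes are not comparable with each other.

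Among themselves the 4 receptors had similar mean ratios. Mean within-horse gaps between any 2 of them ranged from -0.01 to 0.09 on the log2 scale. The exact sign-flip test gave p between 0.5 and 1 for these 6 pairs. With 4 horses that test cannot give a p below 0.125, so it could not have shown a difference. TLR2 and TLR3 kept closest to each other, with the ratio of TLR2 exceeding that of TLR3 by 0.09 ± 0.18 (SD, n = 4), whereas the gap between TLR4 and TLR9 ranged from -1.50 to 1.41.

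Of the other Toll-like receptors on the array TLR1 was called. Of the 10 genes in the receptor list 8 were measured (TLR5 and TLR10 were not analysed here), 1 rose, 0 fell and 7 did not pass. That share is close to the 15.7% called over all targets. Their median log2 ratio was 0.02, against 0.00 (0.0035) over all targets. TLR1 is a partner of TLR2. Its levels from the brightest of 6 probes were 9.53, 9.55, 9.11 and 10.62 in the sarcoids of horses 1 to 4, against 7.57, 7.55, 7.97 and 7.56 in their skin, with no overlap. The log2 ratio was 2.04 ± 0.78 (SD, n = 4; 95% interval 1.26 to 2.82; limma adjusted p = 0.0131).

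The 6 TLR1 probes had the same direction but not the same size, and all 6 were called in the fit over probes. The brightest pair had means of 2.04 and 1.82 and was well above background in 4 of 4 skin channels. Another pair had means of 0.60 and 0.75 and was well above background in 1 and 2 of 4 skin channels. The other 2 were not well above background in any skin channel, so their size is only bounded, and with them included the mean of the 6 gave 1.04 (limma adjusted p = 0.00989). TLR1 did not pass without horse 1 (limma adjusted p = 0.0591) or with the background model fitted to all spots (log2 ratio 1.51, limma adjusted p = 0.253). TLR6, the alternative partner of TLR2, had a ratio of 0.24 ± 0.17 (limma adjusted p = 0.247) and was well above background on 2 of 4 skin channels. With Agilent's processed signals the TLR6 ratio was 1.22 (limma adjusted p = 0.0533), so its size depends on the processing.

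The endosomal RNA sensors TLR7 and TLR8 lay above 0 in 4 of 4 horses, at 0.82 ± 0.57 and 0.88 ± 0.67 (SD, n = 4), without passing the test (limma adjusted p = 0.0786 and 0.0885). TLR7 passed in 4 and TLR8 in 3 of 17 other processing settings. With Agilent's processed signals TLR7 was at 1.95 and TLR8 at 1.39 (limma adjusted p = 0.0261 and 0.0336). The TLR7 probe used was well above background in 3 of 4 skin channels. A second TLR7 probe, at 0.69 ± 0.42 (SD, n = 4), was so in 1 of 4. TLR8 levels were 7.88, 7.88, 7.06 and 10.06 in the sarcoids of horses 1 to 4, against 6.90, 6.95, 7.05 and 8.44 in their skin, so horse 4 was highest in both tissues.

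Within each horse, the log2 ratio of TLR1 from its brightest probe exceeded that of its partner TLR2 by 1.94 to 2.63, and those of TLR3, TLR4 and TLR9 by 2.02 to 2.59, 1.42 to 3.10 and 1.60 to 3.35. Of 17 pairs of genes compared, the exact sign-flip test gave p = 0.125 for every pair of TLR1 with another receptor, the smallest p possible, and 0.193 after Benjamini-Hochberg adjustment. With 4 horses these gaps could not pass. Ratios of TLR1 probes differed from each other by up to 2.60 within a horse, so the size of the gaps belongs to the probe chosen.

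**Figure D2:**
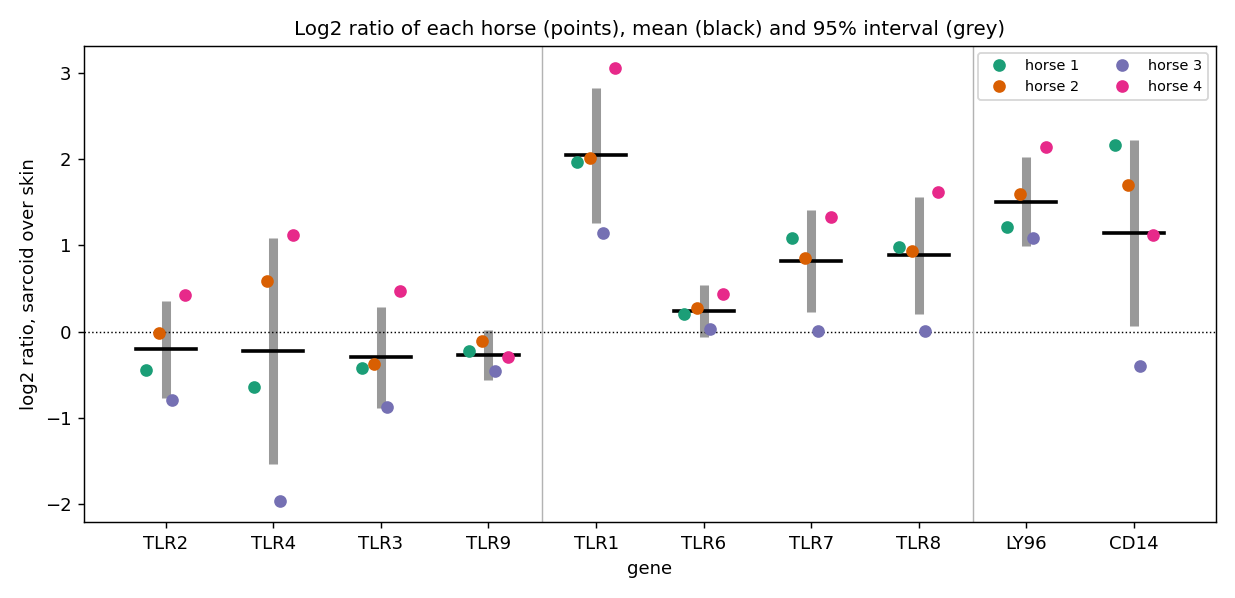
Log2 ratio of sarcoid over skin for the 8 measured Toll-like receptors, LY96 and CD14, with 1 point per horse, the mean as a black bar and the 95% interval of limma in grey. Horse 3 is the lowest point for all 10 genes, and TLR1 and LY96 lie above 0 in all 4 horses.

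The co-receptors and chaperones of the receptors had 3 measured members. LY96, the protein that holds lipopolysaccharide in the TLR4 complex, rose, with a log2 ratio of 1.51 ± 0.47 (SD, n = 4; 95% interval 0.99 to 2.02; limma adjusted p = 0.00949). Its levels were 11.31, 11.74, 10.84 and 12.88 in the sarcoids of horses 1 to 4, against 10.10, 10.15, 9.75 and 10.74 in their skin, and every sarcoid was above every skin sample. The second LY96 probe, printed in 5 spots, gave 1.40 ± 0.51, and its spots differed by a median SD of 0.05 within an array. The LY96 ratio exceeded that of TLR4 by 1.00 to 3.04 and that of TLR2 by 1.61 to 1.88 in the 4 horses (exact sign-flip p = 0.125, the smallest possible; 0.193 adjusted over the 17 pairs). LY96 did not pass with the background model fitted to all spots (limma adjusted p = 0.13) or with the channels modelled separately without a replicate block (limma adjusted p = 0.0506).

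CD14, which hands lipopolysaccharide to LY96 and TLR4 and also marks monocytes, was brighter in the sarcoid of horses 1, 2 and 4, with ratios of 2.17, 1.70 and 1.11, and not in horse 3, with -0.40. The mean of 1.14 ± 1.12 (SD, n = 4) did not pass (limma adjusted p = 0.141). It passed only without horse 3, at 1.66 (limma adjusted p = 0.0292). HSP90B1, an endoplasmic reticulum chaperone that many Toll-like receptors need to fold, rose by 1.93 ± 0.80 (limma adjusted p = 0.0165). The HSP90B1 call was lost without horse 3 (limma adjusted p = 0.0559), without horse 4 (0.0643) and with the background model fitted to all spots (0.0866). All 3 means were thus above 0, with 2 called, where 15.7% of all targets were called and 5.84% were called as higher.

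Downstream of the receptors few genes could be read by name. Of the adaptor and kinase list 2 of 26 genes were measured: TICAM2, which links TLR4 to the adaptor TICAM1, rose by 0.58 ± 0.12 (SD, n = 4; limma adjusted p = 0.0267), and TAB3 was at -0.19 ± 0.11 (limma adjusted p = 0.303). With the background model fitted to all spots, the calls of TICAM2, IL10, FOS and CASP1 were all lost (limma adjusted p = 0.248, 0.339, 0.115 and 0.197). The call of TICAM2 was also lost with any 1 of the 4 horses left out (limma adjusted p from 0.0647 to 0.109) and held in 8 of 17 other settings. Of 3 inhibitors of the pathway IL10 rose by 0.51 ± 0.06, and TNIP1 (0.16 ± 0.63) and SOCS3 (-0.07 ± 0.11) did not pass. IL10, an anti-inflammatory cytokine, was called in 10 of 17 other settings, and in none that left out a horse. Of the transcription factors only FOS, a subunit of AP-1, was measured, which fell (log2 ratio -3.10 ± 1.77), and of other innate sensors only CASP1, the inflammasome protease, which also fell (-0.92 ± 0.47; limma adjusted p = 0.0357 and 0.0375). The call of FOS held in 10 of 17 other settings and was lost without horse 1 or horse 2. That of CASP1 held in 7 and was lost without horse 1, 2 or 3.

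Of 29 cytokines and enzymes that Toll-like receptor signalling is known to induce, 22 had a probe read by name. The filter on dim probes kept 19 of these, of which 3 rose, 0 fell and 16 did not pass. That share is close to the 15.7% called over all targets. Their median log2 ratio was 0.10, against 0.00 over all targets. The 3 were VCAM1, an adhesion molecule for leukocytes (2.61 ± 0.78), the chemokine CXCL9 (1.41 ± 0.80) and the costimulatory receptor CD40 (0.72 ± 0.31; SD, n = 4). The largest of the others was the chemokine CXCL10 at 1.14 ± 0.83 (limma adjusted p = 0.0771). VCAM1 was called in 15, CD40 in 9 and CXCL9 in 6 of 17 other settings, and leaving out any 1 horse ended the calls of CD40 and CXCL9. The 2 CXCL9 probes gave 0.64 and 1.41, and the brighter, at 1.41, was well above background in 3 of 4 skin channels. With the background model fitted to all spots VCAM1, CD40 and CXCL9 were lost (limma adjusted p = 0.0706, 0.288 and 0.334). The interferon-induced list had 7 measured genes, of which 4 rose, 0 fell and 3 did not pass, with a median of 0.97. Over all targets 15.7% were called, and 5.84% were called as higher. The 3 that did not pass, named after their values were seen, were OAS2 (0.97 ± 0.73), MX1 (0.26 ± 1.61) and OAS3 (-0.04 ± 0.09). MX1 was at -1.97 in horse 3. SAMD9, an antiviral factor, was at 1.21 ± 0.31 on its brightest probe and passed in 15 of 17 other settings. Its 3 probes ranged from 0.37 to 1.21, and their mean gave 0.73 (limma adjusted p = 0.0229). The mitochondrial protein IFI27 (1.39 ± 0.71) and OAS1 (1.01 ± 0.56), an enzyme that activates an RNA-cleaving nuclease, passed in 8 and 9 and were lost without horse 1, 2 or 4. EIF2AK2 (0.68 ± 0.29), a kinase that halts translation, passed in 8 and was lost without any 1 of the horses. All 4 were lost with the background model fitted to all spots, where the limma adjusted p was 0.266 for SAMD9, 0.12 for IFI27, 0.162 for OAS1 and 0.309 for EIF2AK2.

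Molecules reported to act as endogenous ligands of TLR2 or TLR4 were measured for 3 of 10 genes. Of these 3, 2 were called, against 15.7% of all targets. The matrix proteoglycans BGN (biglycan) and DCN (decorin) rose by 3.06 ± 0.61 and 1.84 ± 0.51 (SD, n = 4; limma adjusted p = 0.00193 and 0.00612), and HMGB1, a nuclear protein released from damaged cells, was at 0.01 ± 0.33. BGN was called in 17 of 17 other settings and DCN in 16, with a DCN ratio of 0.89 on median centring (limma adjusted p = 0.0686). HMGB1 was at -0.48 on median centring (limma adjusted p = 0.0709).

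**Figure D3:**
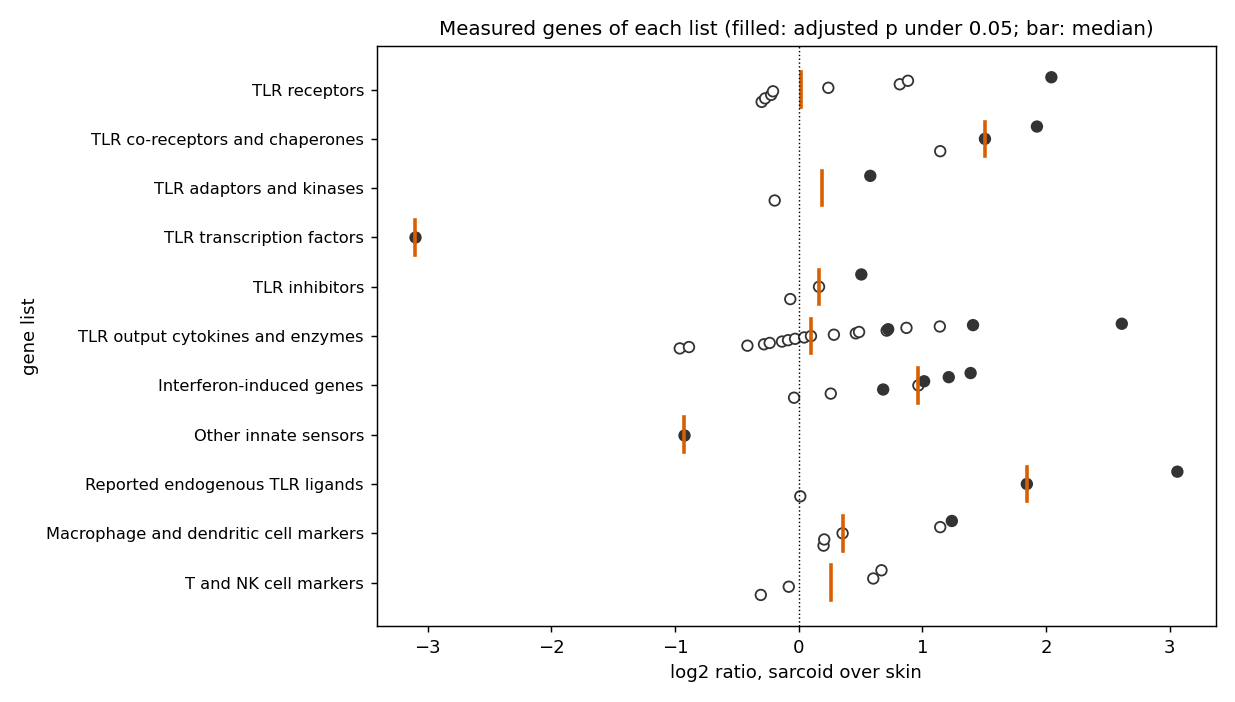
Log2 ratio of sarcoid over skin for each measured gene of 11 lists, filled where limma's adjusted p is under 0.05, with the median of each list in orange. The receptor list runs from -0.30 to 2.04 with a median of 0.02, and all 3 co-receptors and chaperones lie above 1.

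For TLR1 the horse order below is that of its brightest probe. Horse 3 had the lowest log2 ratio for 8 of 8 measured Toll-like receptors, and for CD14 and LY96 as well, while 29% of the 19574 targets measured in all horses had their lowest ratio there. Horse 4 had the highest ratio for 7 of 8 receptors, TLR9 being the exception, against 25.5% of the targets. Both held for 7 of 8 receptors and for 11.1% of the targets. Among the 845 targets with a symbol, 36% were lowest in horse 3, 29.6% were highest in horse 4, and both held for 14.6%. Of the 6 TLR1 probes 3 were lowest in horse 3 and 2 highest in horse 4. This ordering was noticed in these data, and genes of 1 array share its tissue samples and are not independent. Horse 3 was lowest for 8 of 8 receptors without background correction, with Agilent's processed signals and with an added constant of 16. The shares of all targets lowest there were 28.6%, 25.1% and 29.1%. It was lowest for 7 of 8 receptors on median centring, against 28% of targets. With the background model fitted to all spots it was lowest for 5 of 8, against 19.9% of targets. TLR3 and TLR9 were among the receptors not lowest in horse 3 in that last setting. Horse 4 was highest for 5 of 8 receptors on median centring (20.6% of targets) and for 6 of 8 with Agilent's processed signals (27.1%).

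The low ratios of horse 3 came with low levels in its sarcoid. For each of the 8 receptors the level in the sarcoid of horse 3 was the lowest of the 4 sarcoids. The share of all targets with this order of sarcoid levels was not computed, and the order was not examined with the background model fitted to all spots. For TLR1 and TLR6 the skin of horse 3 was also the highest of the skins (7.97 and 6.40), and for the other receptors it was not. For TLR4 that sarcoid was at 9.58, against 10.63 to 12.25 in the other sarcoids and 11.53 in the skin of horse 3. The SD among sarcoids was larger than that among skins for TLR2, TLR3 and TLR4 and for 7 of 8 receptors, and for 76.9% of all targets. It was 0.50 among sarcoids and 0.04 among skins for TLR2, 1.19 and 0.47 for TLR4, 0.75 and 0.26 for TLR3, and 0.10 and 0.13 for TLR9.

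Markers of leukocytes and vessels were mostly lowest in horse 3 as well, against 29% of all targets. Highest in horse 4 were 2 of 5 macrophage, 0 of 4 T and NK cell and 1 of 4 endothelial markers, against 25.5% of all targets. Over all targets 15.7% were called, and 5.84% were called as higher. Of 16 macrophage and dendritic cell markers 5 were measured, 1 rose (CSF1R, the receptor for macrophage growth factor, at 1.24 ± 0.51, limma adjusted p = 0.0199), 0 fell and 4 did not pass, with a median of 0.35. Their mean log2 level was 9.002 in the sarcoid of horse 3 and 9.60 to 9.68 in the other sarcoids, against 9.03 in the skin of horse 3 and 8.64 to 8.87 in the other skins. The median ratio of these 5 was -0.26 in horse 3 and 0.48 to 0.64 in the others, and 4 of the 5 were lowest in horse 3. The call of CSF1R was lost without horse 2 (limma adjusted p = 0.0674) or horse 3 (0.0502), on median centring (0.0762) and with the background model fitted to all spots (0.265).

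Of 15 T and NK cell markers 4 were measured and 0 called, with KLRD1 (an NK receptor subunit) at 0.67 ± 0.36, CD2 at 0.60 ± 0.65, the regulatory T cell factor FOXP3 at -0.08 ± 0.09 and the cytotoxic protease GZMB at -0.31 ± 2.17 (SD, n = 4), and 4 of 4 were lowest in horse 3. Their mean log2 level was 7.22 in the sarcoid of horse 3 and 7.70 to 8.74 in the other sarcoids, against 7.53 to 8.21 over the 4 skins. Of 9 endothelial markers 4 were measured and 0 called, where 15.7% of all targets were called. Their mean level was 8.12 in the sarcoid of horse 3 and 8.65 to 10.44 in the other sarcoids, against 8.80 to 9.57 in skin, and 3 of the 4 were lowest in horse 3. PECAM1 (CD31), an endothelial surface protein, had ratios of 0.42, 2.29, -1.84 and 0.77 in horses 1 to 4 and was the only one of the 4 with a mean above 0. The means of VWF (von Willebrand factor), the adhesion molecule SELE and the endothelin receptor EDNRB were -0.06, -0.23 and -0.63, and the median of the list was -0.15. FOXP3 and VWF were named after their values were seen. Of the 5 fibroblast markers 1 was lowest in horse 3, against 29% of all targets. No marker of B cells could be read by name, and of neutrophils and mast cells only LTF (-2.36 ± 0.79) and KIT (-0.01 ± 0.28). The part of these markers in the receptor ratios was not tested.

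Among 837 other targets with a symbol, those whose 4 ratios lay nearest to a receptor's were found by the root mean square distance over horses. Nearest to TLR4 were SOD2, a mitochondrial superoxide dismutase (distance 0.37), IL6R, the interleukin 6 receptor (0.45), and SELP, the adhesion molecule P-selectin (0.49). SOD2 had ratios of -0.61, 0.12, -1.48 and 1.43 in horses 1 to 4. Nearest to TLR2 were TLNRD1 (0.20), the unnamed locus LOC100050706 (0.20) and the gelatinase MMP9 (0.22), the last with ratios of -0.41, -0.12, -0.45 and 0.66. Nearest to TLR3 were EDIL3 (0.24), the metalloproteinase inhibitor TIMP3 (0.25) and CD1A7 (0.26), and nearest to TLR9 were LY49F (0.06), HSD17B1 (0.09) and EQUCABV1R931 (0.10). None of these 12 genes passed the test (lowest limma adjusted p = 0.124). They were chosen for ratios near those of uncalled receptors, so this follows largely from the choice and adds nothing about them.

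The absence of a call for the 4 receptors did not depend on the processing. Under each of 17 other settings limma called 0 of the 4, with at most 1 of the 4 at an unadjusted p under 0.05. The mean ratio of TLR2 ranged from -0.49 to -0.01, that of TLR3 from -0.67 to -0.01, that of TLR9 from -0.37 to -0.14, and that of TLR4 from -0.67 to 0.36. The share of called targets that were higher in sarcoids was 37.1%, against 48.2% with Agilent's processed signals and 18.7% on median centring, so signs of small ratios depend on the scaling.

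**Figure D4:**
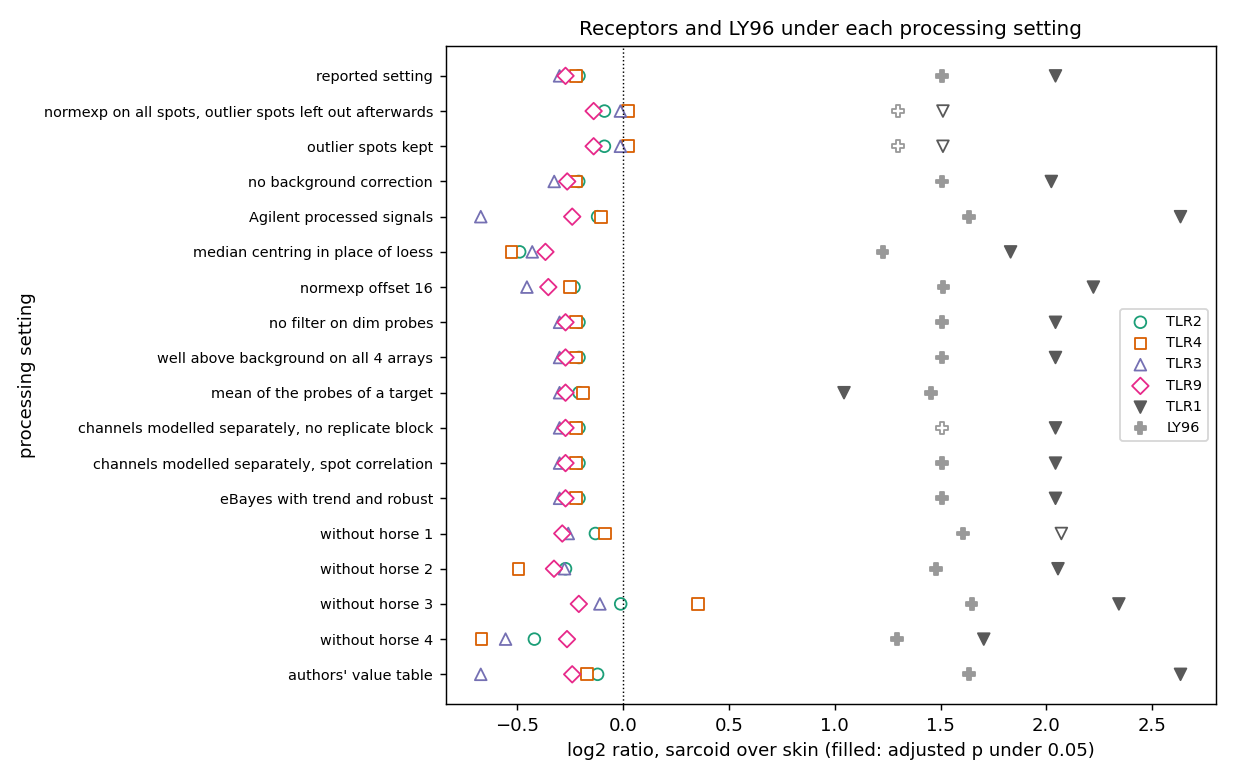
Mean log2 ratio of sarcoid over skin for TLR2, TLR4, TLR3, TLR9, TLR1 and LY96 under the reported and 17 other processing settings, filled where limma's adjusted p is under 0.05. The 4 receptors are open under every setting, and TLR1 and LY96 are filled in 14 of the 17 others.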

How the data were processed

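The 4 arrays were analysed as 1 group of within-horse ratios. The deposited scanner files give linear intensity of spots and of their local background in each channel, per the file headers. The submitters' processing notes name Agilent Feature Extraction 11.5.1.1. The authors' value table holds the log10 ratio of Cy5 over Cy3, and its entries equal the ratios in the scanner files (they differ by at most 0). The column medians were -0.00621, -0.00796, -0.0191 and 0 (horse 1 first). Scale and direction follow from that match, and any further centring is unknown. Other deposited columns are flags.

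Median signals without outlier spots were corrected by normexp (offset 50) and normalized by loess, in which control spots had no weight, with limma 3.58.1 (R 4.3.3). Outlier removal was planned after normexp. Doing it first was decided with the numbers of calls in both orders known, and it gives many more calls, so the report gives the calls of genes named by rule that are lost in the planned order, in which the background model is fitted to all spots. A probe was kept if at least 3 of the 4 sarcoid channels or 3 of the 4 skin channels exceeded background by the scanner's flag, and the brightest probe stood for a target. Ratios, turned to log2 of sarcoid over skin, were tested against 0 (lmFit and eBayes, two-sided, Benjamini-Hochberg over 19607 targets). Levels are log2 intensity after loess and quantile normalization of mean intensities between arrays. Symbols came from RefSeq accessions through a horse gene table (TB-T2T). The array design uses another build, so no coordinates are given. All arrays lay on 1 slide, so no slide block could be fitted, and their number limits the precision. The labels call the samples biological replicates.

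Members and gene lists were chosen with earlier results of these data known. Named by rule were all receptors by every probe, up to 4 genes of each pathway list and with called ones first, up to 3 of each marker list by size, and the 3 nearest patterns per member. The test was checked on simulated data.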

Additional observations from a re-analysis of the deposited data

Results flagged for a closer look

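Among the 46 genes named by rule and examined for a horse standing apart from the other 3, chance would set apart about 1 in 20 groups of 4, and 3 genes were found. IFI27 had log2 ratios of 1.73, 1.69, 0.33 and 1.82 in horses 1 to 4, with horse 3 low (gap over range 0.91). BGN had 3.98, 2.75, 2.85 and 2.67, with horse 1 high (0.869). SPARC, a collagen-binding matrix protein, had 3.36, 3.74, 3.65 and 1.20, with horse 4 low (0.852). None of the 4 receptors was among them.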

How the results depend on the processing

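With 4 arrays and no dye swap, intervals stay wide and dye effects cannot be told apart from tissue. Dim probes such as those of TLR3, TLR6, TLR7 and TLR9 have compressed ratios. Against 3087 called targets, 240 were called with normexp fitted to all spots and 241 with outlier spots kept, and 1466 to 2235 with a horse left out. TLR4 was at 0.0224 with normexp fitted to all spots or outlier spots kept, and between -0.67 and 0.36 with a horse left out; the cause was not tested. No other call or direction of TLR2, TLR3 or TLR9 changed under 17 settings, of which the authors' value table was added after seeing the data. Of 25 called genes named by rule, 5 stayed called with normexp fitted to all spots, 18 on median centring, 25 with offset 16, 24 with Agilent's processed signals, 20 without the filter on dim probes, 17 with trend and robust options, and 14 to 17 with a horse left out. None of the 25 changed direction. The median ratio of all targets was -0.0976 on median centring, against 0.0035 as reported, and TLR2, TLR3, TLR4 and TLR9 were then at -0.49, -0.43, -0.53 and -0.37. With the channels modelled separately and no replicate block, TLR2 stayed at -0.21 (limma adjusted p = 0.645). Uncalled genes that changed sign were GZMB (-0.31) at 0.0020 with normexp fitted to all spots or outlier spots kept, HMGB1 (0.01) at -0.0305 with Agilent's signals or the value table, -0.48 on median centring, -0.0183 with offset 16 and -0.0071 as the mean of probes, KIT (-0.01) at 0.0362 with Agilent's signals or the value table and 0.0628 on median centring, and TNIP1 (0.16) at -0.13 and SOCS3 (-0.07) at 0.0093 on median centring. With a horse left out GZMB ranged from -1.33 to 0.31, HMGB1 from -0.11 to 0.16, KIT from -0.14 to 0.0753, TNIP1 from -0.0436 to 0.36 and PECAM1 from -0.22 to 1.16.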
